A study of Mus musculus with 6 samples.

Results

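The BTG and TOB genes encode a small family of antiproliferative proteins, and the 6 genes listed as *Btg1*, *Btg2*, *Btg3*, *Btg4*, *Tob1* and *Tob2* were taken from the 54532 genes of the expression table by their symbols. RNA-seq was performed on granulosa cells (GCs), the somatic cells that surround the oocyte in the follicle, from female ICR mice, an outbred stock. The mice, aged 3 weeks, were primed with 5 IU of PMSG, a gonadotropin that drives follicle growth, 22 h ahead of treatment. They were then given PBS, as the control, or 120 mg/kg CTX (cyclophosphamide, an alkylating agent that is converted to its active form in the body), and GCs were collected 6 h later. There were 3 PBS samples and 3 CTX samples, and each sample pooled the GCs of 3 mice. The comparison asked how CTX treatment altered gene expression in GCs.

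The proteins of this family share a conserved N-terminal domain that binds the CAF1 subunits (CNOT7 and CNOT8) of the CCR4-NOT complex, the main enzyme complex that shortens the poly(A) tails of mRNAs. By this route they speed the decay of mRNAs and restrain passage from G1 to S phase. BTG2 is a classical p53 target and also an early response gene to growth factors and other stimuli, BTG1 is best known from lymphocytes and as a FOXO target, and the TOB proteins carry an extra motif for poly(A)-binding proteins. BTG4 is known from the oocyte, where it serves the clearance of maternal mRNAs.

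After CTX treatment, 4 of the 6 family members were higher and passed the test, and none was lower. *Btg2* rose 4.33-fold (95% interval 3.49 to 5.39), *Tob1* 2.11-fold (1.85 to 2.42), *Btg1* 2.09-fold (1.77 to 2.48) and *Tob2* 1.73-fold (1.52 to 1.97). *Btg3* and *Btg4* did not pass the test. Levels are given as FPKM (fragments per kilobase of gene, scaled to sequencing depth), which allows levels to be compared between genes. Folds and log2 fold changes are of FPKM + 0.1, from a limma fit over the 14463 genes whose mean FPKM reached 0.5, and all 6 members were among them. A gene passed the test with a Benjamini-Hochberg adjusted p-value below 0.05, and a DEG (differentially expressed gene) also changed by more than 2-fold. In that fit 254 genes (1.76%) passed the test, of which 202 (1.4%) were higher and 52 (0.36%) lower after CTX treatment. DEGs numbered 139 (0.961%), of which 116 (0.802%) were higher and 23 (0.159%) lower. *Btg1*, *Btg2* and *Tob1* were DEGs. The median log2 fold change of the 6 members was 0.93, beside -0.01 over all genes tested.

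**Figure D1:**
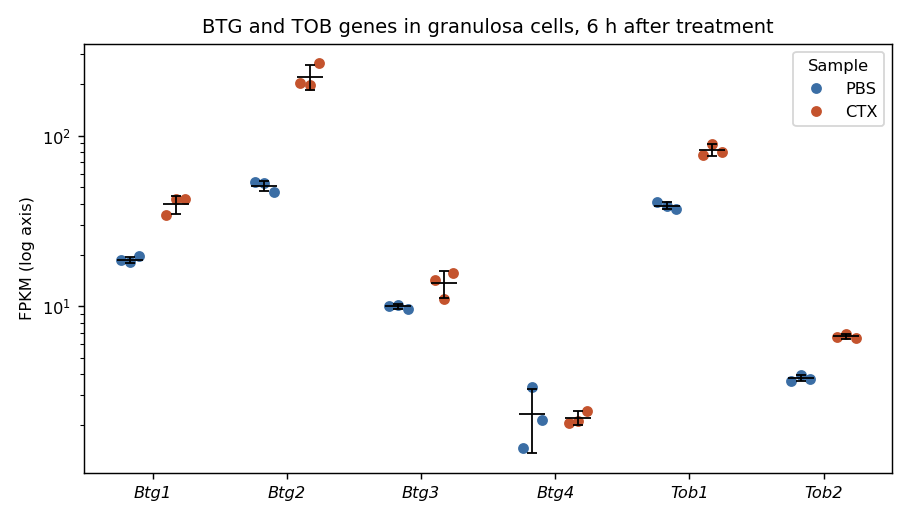
FPKM (log axis) of the 6 family members in each sample. Points are samples, and black bars show the mean and SD of the 3 PBS (blue) or 3 CTX (red) samples. The CTX samples lie above the PBS samples for *Btg1*, *Btg2*, *Btg3*, *Tob1* and *Tob2*, and the groups overlap for *Btg4*.

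The promoters of *Btg2*, *Btg1* and *Tob1* are shown because these members were DEGs. *Tob2*, which also rose, is not shown, and its stretch held neither of the motifs marked here. The sequences are the 250 bases before the RefSeq start site (GRCm38.p6), read 5′ to 3′ on the strand of the gene. They lie at chr1:134079156-134079405 on the minus strand for *Btg2*, at chr10:96616751-96617000 on the plus strand for *Btg1* and at chr11:94211204-94211453 on the plus strand for *Tob1*. Capitals mark each match to TGACG, the core of the cAMP response element (CRE) bound by CREB and ATF proteins, on either strand (read as CGTCA on the other), and each match to TATAAA.
Btg2: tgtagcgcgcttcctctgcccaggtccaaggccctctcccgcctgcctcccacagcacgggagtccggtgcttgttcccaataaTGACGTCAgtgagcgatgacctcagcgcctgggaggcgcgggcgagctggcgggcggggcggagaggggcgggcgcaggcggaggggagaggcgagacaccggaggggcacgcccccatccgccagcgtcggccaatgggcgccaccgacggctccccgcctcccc
Btg1: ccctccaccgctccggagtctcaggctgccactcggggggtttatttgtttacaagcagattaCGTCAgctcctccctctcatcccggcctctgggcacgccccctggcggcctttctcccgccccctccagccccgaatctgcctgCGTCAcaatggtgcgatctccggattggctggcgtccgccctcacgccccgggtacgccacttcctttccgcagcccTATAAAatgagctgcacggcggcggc
Tob1: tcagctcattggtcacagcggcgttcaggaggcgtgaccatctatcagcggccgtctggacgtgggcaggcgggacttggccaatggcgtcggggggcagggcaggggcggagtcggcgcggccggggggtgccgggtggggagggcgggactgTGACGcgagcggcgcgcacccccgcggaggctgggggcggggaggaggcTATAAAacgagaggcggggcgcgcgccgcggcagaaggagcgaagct

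The *Btg2* promoter held a full palindromic CRE, TGACGTCA, from 166 to 159 bases before the start site, and this palindrome contains the core on both strands. Among all 32851 RefSeq windows of the same length, 1.55% held this palindrome. *Btg1* had the core at 187 to 183 and at 103 to 99 bases before the start, and *Tob1* had it at 96 to 92 bases. In all, 3 of the 6 members had the core, *Btg1*, *Btg2* and *Tob1*, against 17.77% of all windows. *Btg3*, which has 2 RefSeq windows, *Btg4* and *Tob2* had no match to it there. The RefSeq starts of *Btg4* (chr9:51116001) and *Tob2* (chr15:81858326) lie inside their gene models. Their windows therefore do not cover the model starts, at 51060901 for *Btg4* and 81858796 for *Tob2* on the minus strand. A TATAAA match lay 26 to 21 bases before the start of *Btg1* and 47 to 42 bases before that of *Tob1*, and 12.37% of all windows had one. *Btg1* was the only member with the FOXO motif GTAAACA, at 204 to 198 bases before the start, and 3.17% of windows had it. The AP-1 motif TGANTCA (6.75% of windows) and the p53 response-element unit, searched as a degenerate motif (7.13% of windows), matched none of the members in these stretches. The CCAAT motif (33.85% of windows) was found in 5 members and missing from *Tob2*, and the GC box GGGCGG (32.74% of windows) was found in 5 and missing from *Btg4*. Every motif was searched on both strands and the matches are descriptions of sequence, with no binding measured here.

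The family members also differed in gene structure. *Btg2*, on chromosome 1 (134075170 to 134079120, minus strand, GRCm38), *Btg1*, on chromosome 10 (96617006 to 96622809, plus strand), and *Tob1*, on chromosome 11 (94211454 to 94215495, plus strand), are short genes. *Tob2* lies on chromosome 15 (81848272 to 81858796, minus strand). The longest coding transcript of each of these 4 genes has 2 exons in GENCODE M21. *Btg3*, on chromosome 16 (78332637 to 78377192, minus strand), and *Btg4*, on chromosome 9 (51060901 to 51119875, plus strand), have 5 exons each. The 4 members that passed the test were the 4 with 2 exons, but *Btg3*, with 5, was also higher in every CTX sample. Whether exon number is linked to the response was not tested. The 3′ UTR of *Btg1* is 4166 bases long and holds 11 ATTTA motifs, the core of AU-rich elements that mark short-lived mRNAs, and 4.36% of 11855 tested genes with such a UTR have as many. The 3′ UTR of *Btg2* has 5, those of *Btg3*, *Btg4* and *Tob2* have 4 each and that of *Tob1* has 3, where the median over these genes is 1. The median 3′ UTR length over these genes is 949 bases, and the count depends on length. Each 3′ UTR is that of the longest coding transcript alone, and those of *Btg3* and *Btg4* are short, at 439 and 521 bases. Per kilobase of 3′ UTR, *Btg3* (9.11) and *Btg4* (7.68) had the most and *Tob2* (1.63) the fewest, beside a median of 1.22. *Tob1* (3.91), *Btg1* (2.64) and *Btg2* (2.27) lay between. As many per kilobase as in *Btg1* and *Btg2* were found in 24.59% and 30.09% of these genes.

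The sequencing depth was 16005869 to 18455011 reads on genes per sample, rebuilt from the FPKM values. CTX replicate 2 stood apart from the other samples, at 74.7 on PC1 of a principal component analysis (46.8% of the variance), while the other 5 lay between -26.6 and 13.2. The label of GCs was checked against 11 markers, all of which were tested, and their summed FPKM was 13595 to 14902 in PBS samples and 11604 to 12516 in CTX samples. None of the 11 passed the test, 9 were lower and 2 higher. In limma, 4 had an unadjusted p-value below 0.05, beside 19.6% of all genes tested. The CTX samples lay below the PBS samples in 8 of the 11 and above in 1, beside 14.1% and 15% of all genes tested. *Inha* made up most of the sum, at 9606 and 8889 FPKM after PBS and CTX. *Inhbb* was at 1623 and 831 FPKM, *Foxl2* at 188 and 110, and *Amh*, which was higher, at 49.4 and 106. *Cyp19a1* (aromatase) was 47.6, 6.61 and 32.5 FPKM in CTX replicates 1, 2 and 3 against 59.2 to 62.4 after PBS. Of 13 leukocyte markers, 7 were tested and none passed, and their summed FPKM was 23.8 to 28.1 in PBS and 30.4 to 72.5 in CTX samples, while the pan-leukocyte gene *Ptprc* stayed at or below 0.0983 FPKM. None of the 5 tested theca markers, the 1 tested endothelial marker or the 5 erythroid markers passed the test. The summed FPKM of all 6 theca, 6 endothelial and 5 erythroid markers, tested or not, was 47.0 to 49.9, 4.84 to 5.57 and 319 to 454 after PBS. After CTX treatment these sums were 31.3 to 50.3, 1.97 to 4.38 and 138 to 497. Of 7 stroma and muscle markers, 6 were tested and *Acta2* (smooth muscle actin) alone rose, from 8.06 to 17.3 FPKM, and their summed FPKM was 26.1 to 27.1 in PBS and 28.3 to 49.7 in CTX samples. The part of other cell types in the results below was not tested. In pooled GCs, a change in the cells present and a change in RNA per cell cannot be told apart.

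*Btg2* was the most abundant member in both groups. It stood at 53.2, 52.8 and 46.5 FPKM in the PBS group and at 204, 197 and 265 FPKM in the CTX group. The lowest CTX sample was far above the highest PBS sample, and the 3 CTX samples differed among themselves more than the PBS samples did (50.8 ± 3.75 and 222 ± 37.3, mean ± SD, n = 3 each). Its log2 fold change was 2.12 (SE 0.13, adjusted p = 1.3e-03), which ranked 61st of the 14463 genes tested. The call rested on 2066 to 2655 reads per PBS sample and 9589 to 13021 per CTX sample. It was kept whichever sample was left out, with log2 fold changes of 1.98 to 2.20, and was 2.20 without CTX replicate 2. Among the leukocyte markers, *Lyz2*, a lysozyme gene of myeloid cells, was 22.9, 45.8 and 14.7 FPKM in CTX replicates 1, 2 and 3, against 13.1 to 14.3 after PBS. *Cd74*, of antigen-presenting cells, was 2.86, 3.76 and 4.95 FPKM in the same samples, against 2.35 to 3.33 after PBS. *Lyz2* was thus highest in CTX replicate 2, where *Btg2* was lowest of the CTX samples. *Cd68*, *C1qa* and *C1qb* were highest there too, at 8.97, 5.80 and 5.39 FPKM. *Cd74* was highest in CTX replicate 3, where *Btg2* was highest too. Of the 7 leukocyte markers tested, 6 had a log2 fold change above 0 and 1, *Cd52*, below 0. The part of leukocytes in the level of *Btg2* was not tested.

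*Btg1*, the closest relative of *Btg2*, was lower in level and rose less. It had 18.5, 18.2 and 19.6 FPKM in the PBS group and 34.2, 42.5 and 42.3 FPKM in the CTX group, so the groups did not overlap. The PBS samples were tight, and CTX replicate 1 was the lowest of the CTX samples. The log2 fold change was 1.07 (SE 0.10, adjusted p = 5.9e-03). Leaving out PBS replicate 1 or PBS replicate 2 took the call just past the threshold (adjusted p = 0.0519 and 0.0525), with log2 fold changes of 1.06 and 1.04. The pseudogenes *Btg1-ps1* and *Btg1-ps2*, which could share reads with *Btg1*, are listed apart, and neither had more than 2 reads in any sample.

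The response of *Btg2* was compared with that of *Btg1* within each sample, a ratio that does not depend on scaling between samples. The log2 ratio of *Btg2* to *Btg1* was 1.51, 1.53 and 1.24 in the PBS group and 2.58, 2.21 and 2.64 in the CTX group. The CTX values all lay above the PBS values, with a difference of 1.05 (two-sided exact permutation test, p = 0.10, adjusted p = 0.15 over 3 pairs). With 3 samples against 3, 0.10 is the smallest p-value that the exact test can give. *Btg2* thus exceeded *Btg1* by more after CTX treatment than after PBS in each sample.

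*Tob1*, whose protein couples CAF1 to poly(A)-binding protein, was the other abundant member. It had 40.9, 38.7 and 37.1 FPKM in the PBS group and 77.4, 89.9 and 79.9 FPKM in the CTX group. Both groups were tight, and they were far apart. Its log2 fold change was 1.08 (SE 0.08, adjusted p = 2.7e-03), and the call was kept whichever sample was left out, from 1.02 to 1.12. *Tob1* had a smaller standard error than 83.5% of the genes tested.

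*Tob2*, its paralog, was expressed at a much lower level. It had 3.65, 3.98 and 3.77 FPKM in the PBS group and 6.57, 6.88 and 6.53 FPKM in the CTX group. The spread within each group was small (SD 0.164 and 0.190), and no sample of one group came near the other group. The log2 fold change was 0.79 (SE 0.08, adjusted p = 6.3e-03), below the 2-fold threshold of a DEG. Without PBS replicate 1 or PBS replicate 3 the adjusted p-value from limma was 0.0519 or 0.0559, at log2 fold changes of 0.77 and 0.79. An antisense gene, *Gm49476*, shares 289 exon bases (4.34%) with *Tob2* and was listed at 0 in every sample. The log2 ratio of *Tob2* to *Tob1* was -3.45, -3.25 and -3.26 in the PBS group and -3.54, -3.69 and -3.59 in the CTX group. The groups did not overlap, but their difference of -0.29 was small beside the rise of either gene (exact permutation test, 2-sided, p = 0.10, again the smallest possible, adjusted p = 0.15).

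**Figure D2:**
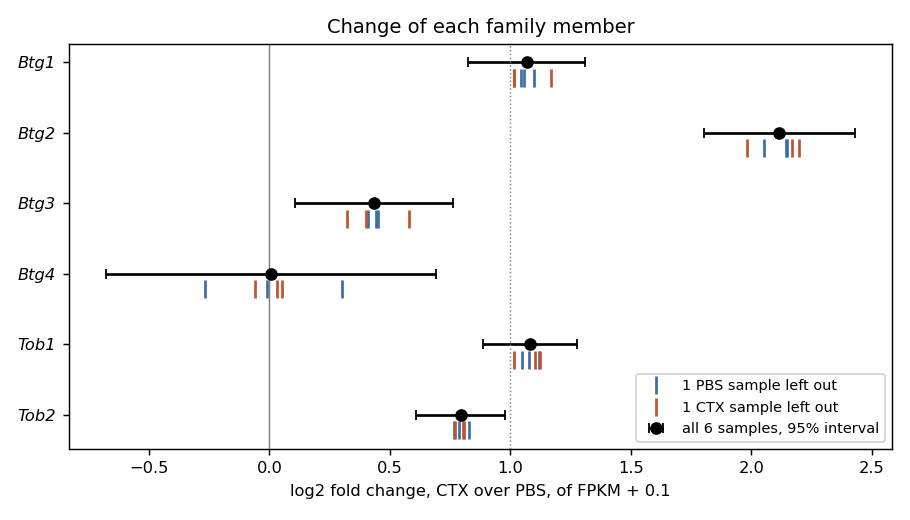
log2 fold change of FPKM + 0.1, CTX over PBS, for each member. Black points and bars give the limma estimate and its 95% interval from all 6 samples, and ticks give the estimate with 1 PBS (blue) or 1 CTX (red) sample left out. *Btg2* lies near 2.12, *Btg1* and *Tob1* just above the dotted line at 1 (2-fold), and *Btg4* spans 0.

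*Btg3*, a relative also known as ANA that restrains E2F1, was higher in every CTX sample without passing the test. It had 10.1, 10.2 and 9.61 FPKM in the PBS group and 14.2, 11.0 and 15.8 FPKM in the CTX group. CTX replicate 2 lay just above the PBS samples, and the other CTX samples were further away. Such a position of the 3 CTX samples above the 3 PBS samples was seen in 2175 of the genes tested (15%), and in 5 of the 6 members. Counting either direction, 4217 genes (29.2%) had groups that did not overlap. The log2 fold change was 0.43 (95% interval 0.11 to 0.76, adjusted p = 0.177). Without CTX replicate 2 it was 0.58, and the gene then passed the test (adjusted p = 0.0178). The 3′ end of *Btg3* overlaps *Cxadr* on the opposite strand, with 695 shared exon bases (17.3% of the exon bases of *Btg3*). *Cxadr* had 3.74 ± 0.214 FPKM after PBS and 3.35 ± 0.462 FPKM after CTX treatment (mean ± SD, n = 3), and whether reads were counted by strand is not given in the sources used here.

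*Btg4* was the least abundant member, with 1.47, 3.35 and 2.15 FPKM in the PBS group and 2.07, 2.14 and 2.45 FPKM in the CTX group. The groups overlapped, and the PBS samples held both the lowest and the highest value. The log2 fold change was 0.0075, with a 95% interval from -0.68 to 0.69. This interval corresponds to a CTX over PBS fold of 0.625 to 1.62, and changes within that range are compatible with these data. It is not a limit of detection, and changes beyond it could also have failed the test. Its levels rested on 67 to 157 reads per sample. Without PBS replicate 1 the log2 fold change was -0.27, and without PBS replicate 2 it was 0.30. The log2 ratio of *Btg4* to *Btg3* was -2.13 ± 0.559 after PBS and -2.56 ± 0.216 after CTX treatment (mean ± SD, n = 3), with overlapping groups (two-sided exact permutation test, p = 0.30, adjusted p = 0.30).

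Because *Btg4* is an oocyte gene, its level was set beside 12 oocyte markers, among them the zona pellucida genes and *Gdf9*. The summed FPKM of these markers was 42.7, 91.7 and 86.4 in the PBS group and 61.6, 111 and 103 in the CTX group. None of the 10 that were tested passed (limma, 0 with an unadjusted p-value below 0.05). All 10 had a log2 fold change above 0, and their groups overlapped for each. PBS replicate 1 was lowest for both the marker sum and *Btg4*, and PBS replicate 2 held the highest *Btg4* level. CTX replicate 2 had the highest marker sum, yet its *Btg4* level of 2.14 FPKM was near that of CTX replicate 1, at 2.07. The ratio of *Btg4* to the marker sum ran from 0.0193 in CTX replicate 2 to 0.0365 in PBS replicate 2. Over the 6 samples, Pearson's r of *Btg4* with single markers on the log2 scale ranged from -0.452 (*Figla*, at or below 0.674 FPKM) to 0.820 (*Oosp1*), with a median of 0.659. The samples share library and depth across these genes, and these values are descriptions. The gene model of *Btg4* overlaps *4833427G06Rik* and *Layn* on the opposite strand, with no shared exon bases.

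**Figure D3:**
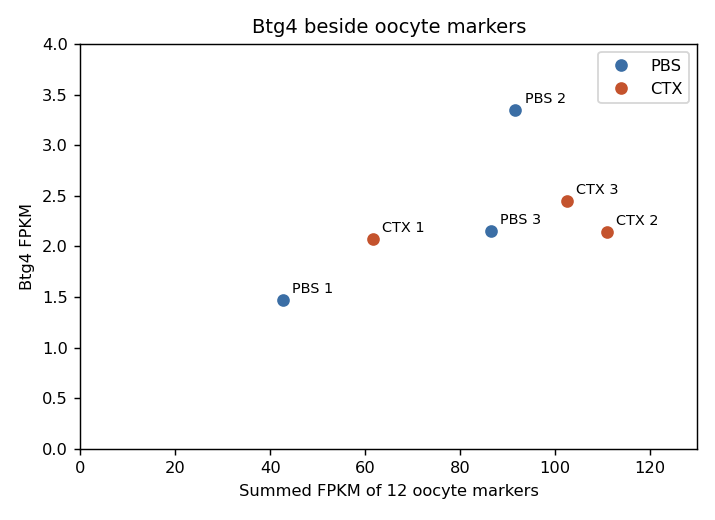
*Btg4* FPKM against the summed FPKM of 12 oocyte markers, 1 point per sample (PBS blue, CTX red). PBS replicate 1 is lowest on both axes, and the PBS and CTX samples overlap on both. CTX replicate 2 has the highest marker sum, with *Btg4* at 2.14 FPKM.

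In level, the members stood in the same order in both groups, *Btg2*, *Tob1*, *Btg1*, *Btg3*, *Tob2* and *Btg4*. On the FPKM scale, no neighbours in this order overlapped in their samples in either group. After PBS, *Btg2* exceeded *Tob1* 1.31-fold, and after CTX treatment 2.69-fold. The FPKM values were scaled by the summed exon length of each gene, which for *Btg3* (4014 bases), *Btg4* (2556 bases) and *Tob2* (6664 bases) is well above the longest coding transcript (1414, 1486 and 4151 bases). The order of *Btg1* and *Btg3* depended on this length. When levels were scaled by the longest coding transcript instead, an alternative chosen after seeing the data, *Btg3* (27.3 to 29.0) stood above *Btg1* (19.2 to 20.7) after PBS. After CTX treatment they overlapped, at 31.3 to 44.8 for *Btg3* and 36.0 to 44.8 for *Btg1*, and the other members kept their places. The summed FPKM of the 6 genes was 119 to 128 in the PBS samples and 339 to 412 in the CTX samples. *Btg2* made up 39.2% to 41.6% of that sum in the PBS samples and 56.4% to 64.3% in the CTX samples. The share of *Tob1* was 30.4% to 31.97% after PBS and 19.4% to 25.7% after CTX treatment, although its own level was higher. *Btg4* made up 0.594% to 0.612% of the sum in the CTX samples.

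**Figure D4:**
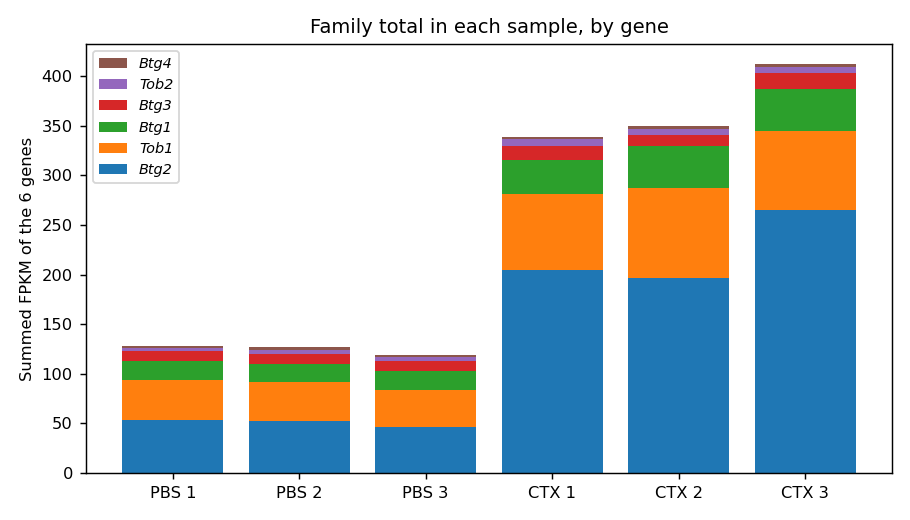
Summed FPKM of the 6 family members in each sample, stacked by gene. The total is 119 to 128 in the PBS samples and 339 to 412 in the CTX samples, and most of the added height is *Btg2*.

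The partners of the family were then examined. None of the 10 measured subunits of the CCR4-NOT complex, to which these proteins bind, passed the limma test, 3 had an unadjusted p-value below 0.05 (2840 of all genes tested, 19.6%), and the median log2 fold change was -0.05. The extremes were *Cnot6*, a CCR4-type deadenylase, at -0.40 (103 and 78.9 FPKM after PBS and CTX, adjusted p = 0.215) and its relative *Cnot6l* at 0.23. *Cnot7* and *Cnot8*, the CAF1 subunits that the family binds, had log2 fold changes of -0.25 (25.8 and 21.7 FPKM, adjusted p = 0.147) and 0.04 (28.0 and 28.8 FPKM, adjusted p = 0.761). For *Cnot7* the 3 CTX samples lay below the 3 PBS samples, as for 5 of the 10 subunits, against 2042 of the genes tested (14.1%). The summed FPKM of *Btg2*, *Tob1* and the other members was below that of the 10 subunits in the PBS samples (258 to 270) and above it in the CTX samples (218 to 242).

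In 5 lists of other genes of mRNA decay and partners of the family, 3 of 53 tested genes passed (5.66%), beside 1.76% of all genes tested. An unadjusted p-value below 0.05 in limma was seen in 19.6% of all genes tested. Of 15 genes of decapping and 5′ decay, 0 passed in limma, 1 had an unadjusted p-value below 0.05, and the log2 fold changes ran from -0.18 to 0.12. Of 5 poly(A)-binding proteins and their regulators, 0 passed and 2 had an unadjusted p-value below 0.05, and *Pabpc1*, the main cytoplasmic one, was at 155 FPKM after PBS and 202 FPKM after CTX treatment (adjusted p = 0.0995). Of 7 deadenylases outside CCR4-NOT, 1 passed and 3 had an unadjusted p-value below 0.05 in limma. The 1 that passed was *Pde12*, which trims poly(A) tails in mitochondria and rose from 3.32 to 5.37 FPKM (log2 fold change 0.68, adjusted p = 0.0339). Of 19 other adaptors that bring mRNAs to the complex, 18 were tested and 5 had an unadjusted p-value below 0.05 in limma. The 2 that rose and passed were both of the ZFP36 family, which binds AU-rich elements. *Zfp36* rose from 38.3 to 156 FPKM (log2 fold change 2.02, adjusted p = 8.2e-04) and *Zfp36l1* from 19.9 to 48.9 FPKM (1.28, adjusted p = 5.8e-03). The third member, *Zfp36l2*, was at 36.3 and 89.1 FPKM and did not pass (adjusted p = 0.112). Among 8 partners outside mRNA decay, which include *Prmt1*, the arginine methyltransferase that binds BTG1 and BTG2, and SMAD genes, 0 passed in limma and 0 had an unadjusted p-value below 0.05. *Prmt1* was at 61.6 FPKM after PBS and 66.2 FPKM after CTX treatment.

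**Figure D5:**
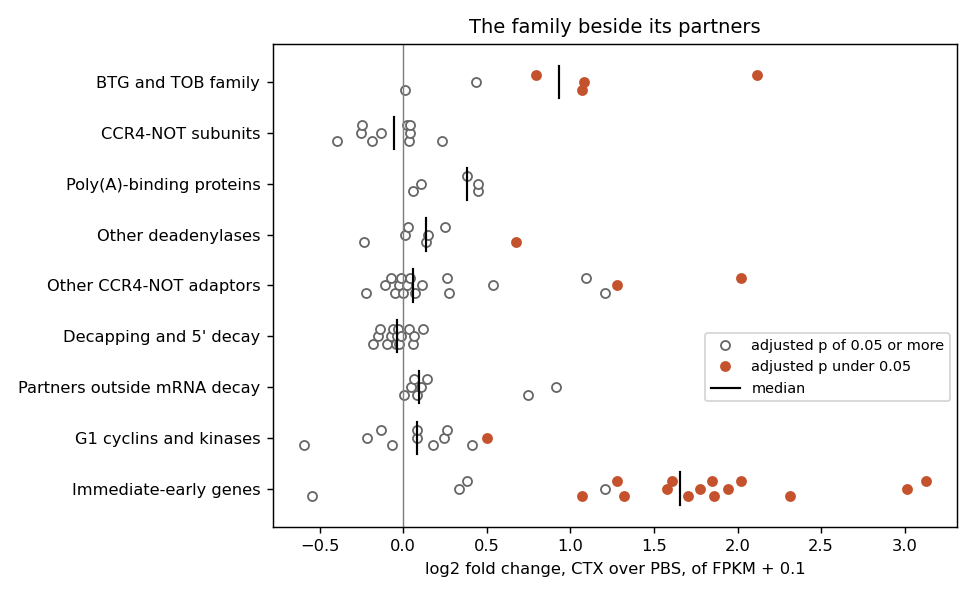
log2 fold change of FPKM + 0.1, CTX over PBS, of each tested gene in 9 lists. Filled points passed the test (adjusted p below 0.05), open points did not, and vertical bars are list medians. *Btg1*, *Btg2*, *Btg3*, *Tob1* and *Tob2* lie to the right of the CCR4-NOT subunits and the decapping genes, and beside part of the immediate-early genes. *Btg4* lies near 0, among the CCR4-NOT subunits and the decapping genes.

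The family is known to restrain the G1 machinery. Of 12 G1 cyclins, kinases and pocket proteins, 11 were tested in limma. Among these, 1 passed and 5 had an unadjusted p-value below 0.05, beside 1.76% and 19.6% of all genes tested. *Rb1*, the retinoblastoma gene that blocks entry into S phase, rose from 12.5 to 17.7 FPKM (log2 fold change 0.50, adjusted p = 0.0203). The largest difference was that of *Cdk6*, a partner kinase of the D-type cyclins, at 3.53 and 2.31 FPKM, where the CTX samples lay below the PBS samples (log2 fold change -0.59, adjusted p = 0.114). *Ccnd2*, the main D-type cyclin of GCs, was at 42.1 FPKM after PBS and 36.1 FPKM after CTX treatment (adjusted p = 0.184). *Ccnd1*, whose repression by BTG2 is well known, was at 0.324 and 0.492 FPKM and was below the filter. *E2f1* was at 14.9 and 19.8 FPKM (adjusted p = 0.0509).

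Among 8 genes that regulate the family or report on its regulators, 3 rose and passed the test, beside 1.4% of all genes tested. *Cdkn1a*, the best-known p53 target, rose from 9.06 to 58.6 FPKM (log2 fold change 2.65, adjusted p = 1.9e-03), *Mdm2*, which p53 induces and which degrades it, from 12.1 to 22.2 FPKM (0.87, adjusted p = 0.0224), and *Egr1* from 301 to 899 FPKM (1.58, adjusted p = 1.2e-03). *Trp53* itself, at 30.1 and 39.6 FPKM, did not pass (adjusted p = 0.217). *Foxo1*, at 82.9 and 99.5 FPKM, and *Foxo3* (log2 fold change 0.35) did not pass either (adjusted p = 0.512 and 0.174), and nor did *Creb1*, which encodes a CRE-binding factor, at 4.24 and 3.61 FPKM (adjusted p = 0.290). In a list of 18 immediate-early genes, which many stimuli and cell handling raise, 14 rose, all of them DEGs. Of all genes tested, 0.802% were DEGs that were higher after CTX treatment. *Atf3* and *Egr2* rose most, with log2 fold changes of 3.13 and 3.02. *Nr4a1* (2.32), *Zfp36* (2.02), *Klf6* (1.95), *Fosb* (1.86), *Fos* (1.85), *Junb* (1.78), *Klf2* (1.70), *Nr4a2* (1.61), *Egr1* (1.58), *Ier3* (1.32), *Jun* (1.28) and *Ier2* (1.07) followed. These genes encode mostly short-lived transcription factors and feedback regulators, and *Zfp36* and *Egr1* are in the lists above as well. The log2 fold change of *Btg2* (2.12) lay between those of *Nr4a1* and *Zfp36*, while *Btg1* (1.07) and *Tob1* (1.08) lay near *Ier2*. The summed FPKM of the 18 genes was 1854 to 1994 in the PBS samples and 5322 to 6071 in the CTX samples. Of 8 heat-shock genes, 1 passed the test, *Hspa8*, which rose from 253 to 363 FPKM (log2 fold change 0.52, adjusted p = 0.0353). In all, 7 of the 8 had a log2 fold change above 0, beside 7034 of the 14463 genes tested. In 5 the CTX samples lay above the PBS samples, beside 15% of all genes tested. The largest log2 fold change was that of *Dnajb1*, at 32.9 and 66.6 FPKM (0.98, adjusted p = 0.0630). The summed FPKM of the 8 genes was 478 to 497 after PBS and 635 to 684 after CTX treatment. The part of cell handling or heat-shock genes in the rise of *Btg2* was not tested.

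The genes whose values over the 6 samples were most like those of each member were named by Pearson's r of log2(FPKM + 0.1) among the genes tested. For *Btg2* they were *Nr4a1* (r = 0.999), *Socs3* (0.999) and *Zfp36* (0.998), with log2 fold changes of 2.32, 2.10 and 2.02. For *Tob1* they were *Perp*, *Pitpnm2* and *Piezo1* (r = 0.998, 0.998 and 0.997), with log2 fold changes of 1.42, 1.05 and 1.07. For *Btg1* they were *Sac3d1*, *Mex3d* and *Jund* (r = 0.998, 0.996 and 0.995), and for *Tob2* they were *Ier3*, *Snx29* and *Ing2* (r = 0.998 for each). For *Btg3* they were *Dcaf4*, *Cebpd* and *Bhlhe40* (r = 0.993, 0.991 and 0.990), and for *Btg4* they were *Inpp1*, *Gas8* and *AU022751* (r = 0.992, 0.966 and 0.950). Within the family, the values of *Btg1*, *Btg2*, *Tob1* and *Tob2* correlated at r = 0.976 to 0.988 with each other, *Btg3* at 0.750 to 0.869 with these, and *Btg4* at -0.029 to 0.104 with the other members. With 6 samples in 2 groups, a gene that differs strongly between the groups correlates with any other such gene, and these values are descriptions.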

How the data were processed

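Gene expression was measured by RNA-seq in 6 samples, which were assigned to the PBS or CTX group from their labels. The authors deposited FPKM values per gene, on GRCm38 coordinates. The submitters' processing notes name CASAVA 1.8, fastp, HISAT2 2.0.5, featureCounts 1.5.0-p3 and DESeq2 1.20.0, with mm10, and do not give their order. The authors' own comparison, deposited beside the FPKM values as a mean signal per group, log2 fold changes and p-values, was not used. No per-sample column was left unused.

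Reads were rebuilt from the FPKM values and gene lengths, and 100% of the values above 0 came out whole (within 0.001 of a read, or within rounding for high counts). Whether counting used strand is not given in the sources used here. Intervals on folds come from the spread between samples. The FPKM values carry the authors' scaling between samples, and 3 reads on 1 kb correspond to 0.164 to 0.185 FPKM.

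Values of log2(FPKM + 0.1) were compared between all 6 samples by limma 3.58.1 in R 4.3.3 (lmFit, eBayes with trend, 2-sided), with p-values adjusted over all genes tested by the Benjamini-Hochberg method. The pseudocount makes the fold changes of low genes too small. Ratios of paralogs were compared by exact permutation tests. Sequences were read from RefSeq windows (all 6 members matched), and gene models and UTRs from GENCODE M21, in which all 6 members have the deposited start and end. Sequences and figures were handled with Python 3.11.15, matplotlib 3.10.9, NumPy 2.4.6 and pandas 2.3.3.

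The rule for named genes took every member, each gene of the lists that passed the test, the extremes of the CCR4-NOT list and the 3 genes most like each member. The members, lists, motifs and tests were chosen with earlier results of these data known. The listed genes named without passing the test (such as *Cnot7*, *Pabpc1*, *Ccnd2* and *Trp53*) and genes that overlap a member were singled out after their values were seen. So were the markers *Lyz2*, *Cd74*, *Cd68*, *C1qa*, *C1qb*, *Cd52*, *Ptprc*, *Cyp19a1*, *Inha*, *Inhbb*, *Foxl2* and *Amh*. As alternatives, the fit was run with pseudocounts of 0.01 and 1, without the filter, with a mean FPKM of at least 5, with quantile normalization, scaling to library totals, arrayWeights, no trend, the replicate number as a block, voom on rebuilt reads, unadjusted p-values and each sample left out in turn.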

Additional observations from a re-analysis of the deposited data

How the results depend on the processing

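*Btg2* and *Tob1* passed the test under all 17 alternatives. The count of family members past the test, 4, was 2 with the replicate block and 2 to 5 with 1 sample left out, and the count of DEGs among them was 2 to 3. With the replicate block, *Btg1* had a log2 fold change of 1.07 (limma, adjusted p = 0.0511) and *Tob2* of 0.79 (adjusted p = 0.0739), and with 1 sample left out they ranged from 1.01 to 1.17 and from 0.77 to 0.83. *Btg3* passed with arrayWeights at 0.64 and with unadjusted p-values at 0.43, and ranged from 0.32 to 0.58 with 1 sample left out. The sign of *Btg4* turned with pseudocount 1 (-0.0089), library totals (-0.023) and voom (-0.00022), and without PBS replicate 1 (-0.27), PBS replicate 3 (-0.0090) or CTX replicate 3 (-0.062), with a range of -0.27 to 0.30 with 1 sample left out, and it never passed. It could not be tested at a mean FPKM of at least 5. The log2 ratios between paralogs kept their sign under the 8 alternatives run. The core TGACG was found in 3 members in the window with the 50 bases after the start as well.

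Over all genes, 254 passed (202 higher), against 5753 (2805 higher) with arrayWeights, 53 (50 higher) with the replicate block, 2840 (1524 higher) with unadjusted p-values, and 70 to 528 (68 to 360 higher) with 1 sample left out (lowest without PBS replicate 3, highest without CTX replicate 2). The voom fit on rebuilt reads called 271. limma reported that the arrayWeights had not converged. Of the genes in the 6 lists of partners, 3 passed, against 22 with arrayWeights, 1 with the replicate block, 14 with unadjusted p-values and 1 to 5 with 1 sample left out. The cause was not tested for any of these. Samples with the same replicate number hold different mice, and their deviations from the group means correlated at 0.0058 to 0.056 across genes. The number was therefore not used as a pair in the main fit. Whether samples of the same number shared a day or a batch was not tested. At this depth, changes of low genes such as *Btg4* (67 to 157 reads) are the least certain.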
